A study of Mus musculus with 2 samples.

Results

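Levels of 8 of the 32285 annotated genes were followed across tumour-infiltrating cells: Klrd1, Klrc1, Klrc2, Klrk1, Klre1, Nkg7, Styk1 and Crtam. They were taken by symbol, and each symbol matched 1 annotated gene. MC38 is a mouse colon adenocarcinoma line; cells were taken from its tumours on day 14 after inoculation and read with a standard 10x single-cell assay. One genotype was wild type (WT) and the other Ifnar1-SA, an allele of the gene for a type I interferon receptor chain, with 1 library each and no treatment. What SA stands for, the number of mice in a library and their age are not stated. The cells are labelled CD8 T cells in one field and infiltrating immune cells in another.

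Natural killer (NK) cells and cytotoxic T cells carry lectin-like receptors that read ligands on other cells and either restrain or trigger killing. Klrd1 encodes CD94, which pairs with the product of Klrc1 (NKG2A, inhibitory) or of Klrc2 (NKG2C, activating) to bind the non-classical class I molecule Qa-1. Klrk1 encodes the activating receptor NKG2D, which binds stress-induced ligands, and Klre1 encodes a lectin-like receptor that pairs with KLRI partners. The other 3 genes encode no lectin: Nkg7 a membrane protein of cytotoxic granules, Styk1 a receptor-like kinase, and Crtam an immunoglobulin-family receptor of activated T cells that binds CADM1.

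All 8 genes are protein-coding, and no other annotated gene overlaps them in the annotation used here (mm10). Klre1 (chr6:129577905-129585827, plus strand), Klrd1 (chr6:129591782-129598775, plus strand), Klrk1 (chr6:129610323-129623864, minus strand), Klrc2 (chr6:129647496-129660689, minus strand) and Klrc1 (chr6:129666015-129678973, minus strand) lie near each other in the NK gene complex, with Klrc3 between Klrk1 and Klrc2. Styk1 (chr6:131299142-131353597, minus strand) is on the same chromosome, Nkg7 is at chr7:43437073-43438249 on the plus strand and Crtam at chr9:40969691-41004628 on the minus strand. Klrc1 and Klrc2 are close copies, so how well their counts can be told apart depends on the stretch of transcript that was read; the labels do not say which end that was. The last 120 coding bases before the stop codon are shown for both and for the neighbour Klrc3, with the bases that differ from Klrc1 in capitals.
Klrc1: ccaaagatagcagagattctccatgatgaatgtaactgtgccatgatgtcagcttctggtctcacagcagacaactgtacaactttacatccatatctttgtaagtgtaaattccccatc
Klrc2: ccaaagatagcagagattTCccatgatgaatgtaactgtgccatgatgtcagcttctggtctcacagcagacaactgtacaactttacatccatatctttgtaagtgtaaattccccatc
Klrc3: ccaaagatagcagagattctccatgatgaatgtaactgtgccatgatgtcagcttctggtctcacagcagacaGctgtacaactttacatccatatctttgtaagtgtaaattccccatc
Klrc2 differed from Klrc1 at 2 of these 120 bases and Klrc3 at 1. Over the whole coding sequence, 83.1% of aligned bases were identical between Klrc1 and Klrc2, and 94.9% between Klrc2 and Klrc3. Of all 50-base windows in the last 500 transcript bases, 56.3% in Klrc1 and 34.6% in Klrc2 also occurred in another Klrc gene of these 3, against 0% in the other 6 genes. The sources used here do not say how reads shared by 2 genes were counted, so the counts of Klrc1 and Klrc2 are uncertain to that extent.

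Promoter windows, from 250 bases before to 50 bases after a start, were available from RefSeq (GRCm38.p6) for 5 of the 8 genes. Those of Klre1 and Klrk1 are shown because these near neighbours had opposite differences between the libraries. Capitals mark the letters TGTGGT, searched on both strands and bound by RUNX factors, which act in cytotoxic T cells and NK cells.
Klre1 (chr6:129577963-129578262, plus strand): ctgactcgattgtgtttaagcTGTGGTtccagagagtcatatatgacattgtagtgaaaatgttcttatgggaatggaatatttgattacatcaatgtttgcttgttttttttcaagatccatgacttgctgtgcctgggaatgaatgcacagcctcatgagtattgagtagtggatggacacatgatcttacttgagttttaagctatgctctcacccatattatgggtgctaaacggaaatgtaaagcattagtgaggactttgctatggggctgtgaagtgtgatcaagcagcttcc
Klrk1 (chr6:129623815-129624114, minus strand): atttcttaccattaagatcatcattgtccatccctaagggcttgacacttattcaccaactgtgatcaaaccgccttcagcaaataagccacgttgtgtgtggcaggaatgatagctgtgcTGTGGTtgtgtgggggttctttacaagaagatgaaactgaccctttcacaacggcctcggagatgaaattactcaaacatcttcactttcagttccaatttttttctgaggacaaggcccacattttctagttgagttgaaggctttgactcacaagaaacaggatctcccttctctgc
These letters stood in at least 1 window of each of the 5 genes (Klre1, Klrk1, Klrc1, Klrc2 and Nkg7) and in 16.8% of all 32851 promoter windows of the same length. A further window of Klre1, with a start further along the gene, did not hold them. The letters of an interferon-stimulated response element (TTTC, any 2 bases, TTTC), searched on both strands, were in none of the windows of the 5 genes and in 3.44% of all windows. Also searched were letters of a gamma-activated sequence (GAS, TTCNNNGAA with N any base), a T-box (AGGTGT) and NFAT (TGGAAA). GAS and T-box letters stood in the Nkg7 window and NFAT letters in that of Klrc1. All windows held them in 8.30% (GAS), 13.7% (T-box) and 21.4% (NFAT). A match or its absence describes these letters in these windows only.

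Each library held 55497066 (WT) or 62732220 (Ifnar1-SA) unique molecular identifiers (UMIs, each standing for 1 captured transcript). After filtering, 4058 WT and 5001 Ifnar1-SA barcodes were kept, with medians of 8016.5 and 7176 UMIs, and 7 barcode sequences occurred in both libraries. CD8 T cells were barcodes with at least 2 UMIs of Cd3e, Cd3g and Trac together and at least 2 of Cd8a and Cd8b1 (1155 WT and 883 Ifnar1-SA). Regulatory T cells had the same T cell minimum and at least 1 Foxp3 UMI (457 and 751), and other T cells had it with no Cd8a, Cd8b1 or Foxp3 UMI (473 and 805). All 5 T cell markers were detected in each class. The macrophage markers C1qa, C1qb, C1qc, Lyz2, Csf1r, Apoe, Adgre1 and Cd68 were also detected in each class, 8 of 8, and summed to 8086 counts per 1000000 UMIs (CPM) in WT and 11261 in Ifnar1-SA in CD8 T cells. The sums were 11250 and 15805 in regulatory T cells and 20043 and 25501 in other T cells. Of 7 NK markers, which summed to 1241 and 2258 CPM in CD8 T cells with most of it from Tyrobp and Fcer1g, the defining receptor gene Ncr1 gave 2 WT UMIs and 0 from Ifnar1-SA in that class. The Ifnar1-SA library held transcripts of both sexes: Y-linked transcripts (Ddx3y, Eif2s3y, Kdm5d and Uty) had 1358 UMIs there and 4 in WT. Results are therefore also given for Ifnar1-SA cells with Xist and no Y-linked UMI and for those with Y-linked UMIs and no Xist.

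A level below is CPM, the UMIs of a gene per 1000000 UMIs of the class, with an exact 95% Poisson interval, and a difference is a log2 ratio, Ifnar1-SA over WT, with an exact 95% interval. Intervals and limits cover counting error only. With 1 library per genotype no difference has a replicate check or a test, and "higher" and "lower" describe these libraries. A gene was compared with at least 30 UMIs over both libraries and at least 20 CPM in either, and it counted as past the fold when its whole interval lay beyond 1.5-fold. Levels are compared between classes and libraries, not between genes.

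Every one of the 8 genes had a higher level in CD8 T cells than in regulatory T, other T or macrophage barcodes in both libraries, with no overlap of intervals. Klrd1 stood at 986 CPM (968 to 1005) in WT and 912 (891 to 934) in Ifnar1-SA CD8 T cells. Its level was 108 (97.5 to 120) and 58.9 (53.2 to 65.1) in other T cells, 46.1 (40.3 to 52.5) and 55.3 (50.2 to 60.8) in regulatory T cells, and 8.32 and 5.85 in macrophage barcodes. The order was thus CD8 T, other T, regulatory T, macrophage in both libraries, but in Ifnar1-SA the intervals of other T and regulatory T cells overlapped. Barcodes with NK markers and at most 1 T cell UMI were few, 14 in WT and 10 in Ifnar1-SA, and their Klrd1 level was 443 (343 to 562) and 804 (613 to 1034) CPM, the latter overlapping the CD8 T level of the same library. Macrophage markers summed to 39957 CPM in these WT barcodes and 12133.5 in those of Ifnar1-SA. The part of macrophage RNA in the NK-gated levels of any gene was not tested. Klrc1 followed with 411 (399 to 424) and 392 (378 to 406) CPM in CD8 T cells, 50.3 and 41.1 in other T cells, 23.1 and 30.4 in regulatory T cells and 0.931 and 1.21 in macrophage barcodes. In NK-gated barcodes Klrc1 was at 99.2 (55.5 to 164) and 308.0 (195 to 462) CPM. Klrc2 was at 60.2 (55.6 to 65.0) and 74.9 (68.95 to 81.3) CPM in CD8 T cells, 15.1 and 13.9 in other T cells, 2.23 and 7.50 in regulatory T cells and 0.310 and 0.993 in macrophage barcodes. NK-gated barcodes had Klrc2 at 66.1 (31.7 to 122) CPM in WT, overlapping the CD8 T level, and 241 (143 to 381) in Ifnar1-SA, above it.

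**Figure D1:**
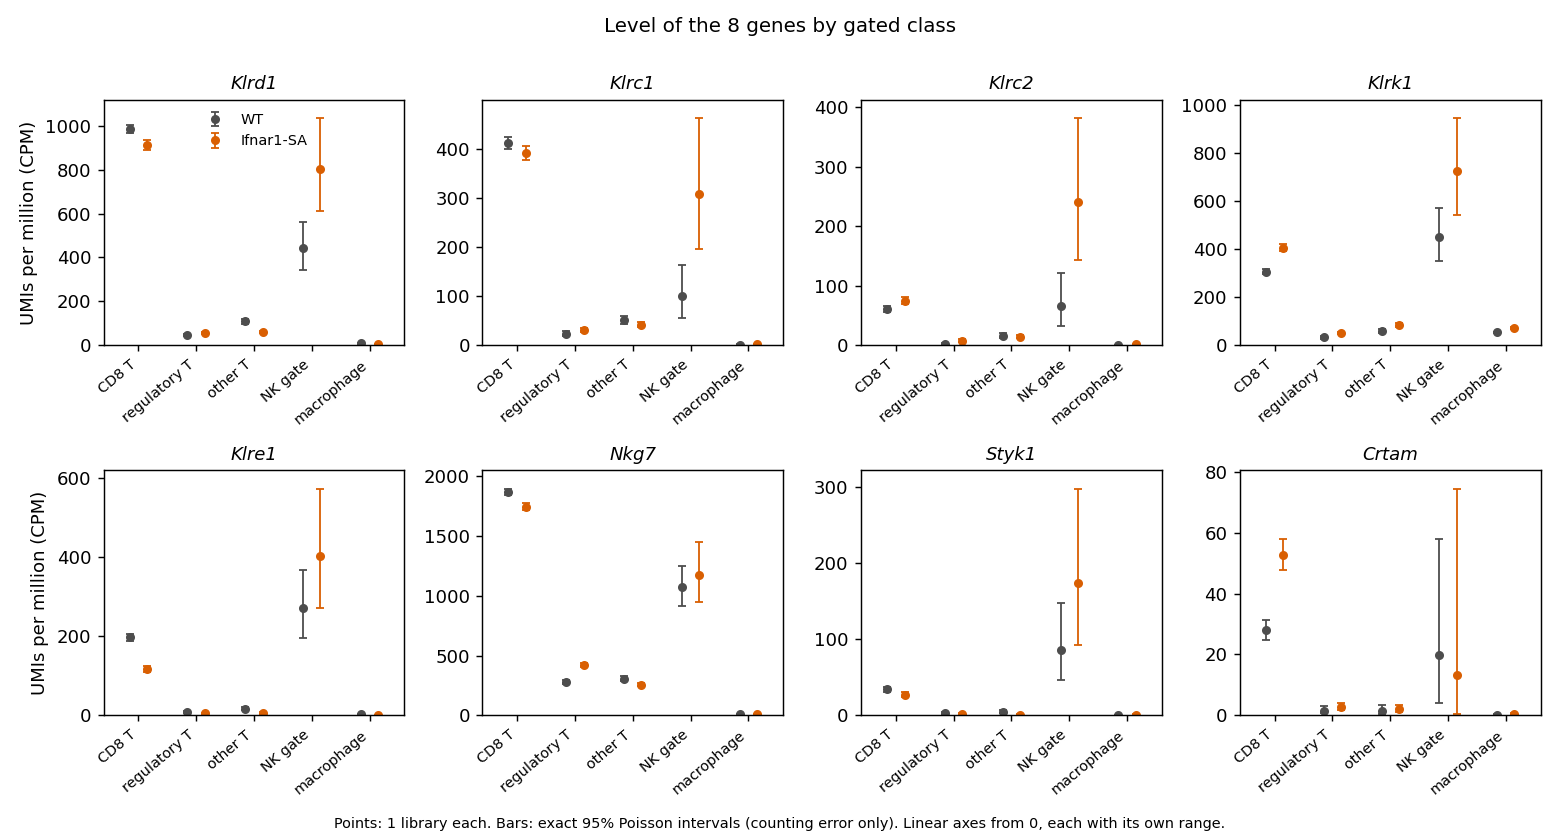
Level of each of the 8 genes in CPM (linear axes from 0) in 5 gated classes; each point is 1 library, WT in grey and Ifnar1-SA in orange, with its 95% Poisson interval. Every gene is higher in CD8 T cells than in the other T cell classes, and Klrk1 is the gene with a level above 50 CPM in macrophage barcodes of both libraries.

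Nkg7 had 1873 and 1747 CPM in CD8 T cells, 307 and 254.5 in other T cells, 277 and 422 in regulatory T cells, and 6.39 and 6.18 in macrophage barcodes. Regulatory T and other T cells overlapped in their intervals for Nkg7 in WT, and in Ifnar1-SA the regulatory T level was above the other. NK-gated barcodes held Nkg7 at 1071 (912 to 1249) and 1178.5 (945 to 1452) CPM, below CD8 T cells, with the macrophage RNA in these barcodes not accounted for. Klre1 was at 197 and 118 CPM in CD8 T cells, 16.0 and 5.49 in other T cells and 6.88 and 4.91 in regulatory T cells. In NK-gated barcodes Klre1 reached 271 (194.5 to 368) and 402 (271 to 574) CPM from 41 and 30 UMIs, overlapping the CD8 T level in WT and above it in Ifnar1-SA. Styk1 likewise had 33.8 and 27.1 CPM in CD8 T cells and 85.9 (45.8 to 147) and 174 (92.7 to 298) in NK-gated barcodes, from 13 UMIs in each. Crtam was close to the floor outside CD8 T cells: it had 7 and 20 UMIs in regulatory T cells, 5 and 13 in other T cells, 2 and 5 in macrophage barcodes and 3 and 1 in NK-gated barcodes. In the few NK-gated barcodes this was 19.8 (4.09 to 57.95) and 13.4 (0.339 to 74.6) CPM. Those intervals overlapped the CD8 T levels of 27.9 and 52.7, so a lower Crtam level in NK-gated barcodes was not shown.

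Klrk1 was the gene of the 8 with a level beyond T and NK barcodes. Its level was 304.5 (294 to 315) and 405 (391 to 419) CPM in CD8 T cells and 57.0 and 83.6 in other T cells, and NK-gated barcodes had 449.5 (349 to 569.8) and 723 (543 to 944). In macrophage barcodes, which had no Cd3e, Cd3g or Trac UMI, it was 52.8 (49.3 to 56.5) and 69.3 (65.5 to 73.2) CPM, above the regulatory T level of 31.6 (26.8 to 36.9) and 50.02 (45.2 to 55.3). The UMI ratio of Klrk1 to Klrd1 was 6.35 (5.29 to 7.68) in WT and 11.8 (9.70 to 14.6) in Ifnar1-SA macrophage barcodes, against 0.309 (0.297 to 0.321) and 0.444 (0.425 to 0.463) in CD8 T cells. Among barcodes with at most 100 UMIs, Klrk1 had 104 and 99.9 CPM and Klrd1 324 and 270. The log2 ratio of Klrk1 in macrophage barcodes was 0.39 (0.26 to 0.52).

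In CD8 T cells all 8 genes were compared; 3 had a higher and 5 a lower level in Ifnar1-SA, with a median log2 ratio of -0.085, beside 0.018 over the 5471 genes compared. Crtam was past the fold in the higher direction, as were 3.6% of all genes compared, and Klre1 in the lower direction, as were 1.11%. Klrd1 (986 to 912 CPM, log2 ratio -0.11, from -0.16 to -0.07), Klrc1 (411 to 392, -0.07, from -0.14 to -0.003) and Nkg7 (1873 to 1747, -0.10, from -0.13 to -0.07) were lower by small amounts. Without barcodes that held 10 or more UMIs of macrophage markers (12.5% of WT and 22.5% of Ifnar1-SA CD8 T cells), all 3 were higher instead, at 0.17 for Klrd1, 0.18 for Klrc1 and 0.16 for Nkg7. The direction of these 3 genes, which encode the CD94/NKG2A inhibitory receptor and the granule protein, was therefore not settled at this size of difference.

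Klrk1 and Klrc2, which encode activating receptors, had higher values in the Ifnar1-SA library, and neither was past the fold. Klrk1 stood at 304.5 CPM in WT and 405 in Ifnar1-SA, with a log2 ratio of 0.41 (0.34 to 0.48), and it remained on the higher side in each of the 18 alternatives run, from 0.33 to 0.74. Klrc2 stood at 60.2 and 74.9 CPM, a log2 ratio of 0.32 (0.15 to 0.48), with values from 0.27 to 0.87 over the same alternatives; after thinning to 2000 UMIs per cell its interval held 0 (-0.045 to 0.59). The UMI ratio of Klrc2 to Klrc1 was 0.146 (0.135 to 0.159) in WT and 0.191 (0.175 to 0.209) in Ifnar1-SA, with the uncertainty over shared reads given above.

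Klre1 had the lower level: 2109 UMIs in 578 of 1155 WT cells and 915 UMIs in 354 of 883 Ifnar1-SA cells. WT stood at 197 (188.5 to 205) CPM and Ifnar1-SA at 118 (110 to 125), which is a log2 ratio of -0.74 (-0.86 to -0.63). The 5 cells with most Klre1 UMIs held 5.41% and 6.23% of them, so the level was spread over many cells. Leaving out the macrophage-marker barcodes gave -0.51 (-0.63 to -0.39), no longer past the fold, and weighting cells equally gave -0.40. Klre1 UMIs per Klrd1 UMI were 0.1995 (0.190 to 0.209) in WT and 0.129 (0.120 to 0.138) in Ifnar1-SA, a comparison within each library that does not use the library total. Barcodes with at most 100 UMIs held Klre1 at 52.3 and 28.0 CPM.

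Styk1 was at 33.8 (30.4 to 37.4) CPM in WT and 27.1 (23.6 to 31.0) in Ifnar1-SA CD8 T cells, a log2 ratio of -0.32 (-0.57 to -0.07). Crtam had 299 UMIs in 133 WT cells and 410 UMIs in 178 Ifnar1-SA cells. WT stood at 27.9 (24.8 to 31.3) CPM and Ifnar1-SA at 52.7 (47.7 to 58.0), for a log2 ratio of 0.92 (0.70 to 1.14). The 5 cells with most Crtam UMIs held 21.4% of them in WT and 16.1% in Ifnar1-SA, so a few cells weighed more here than for the other genes; without them the log2 ratio was 1.01. Crtam remained past the fold in 13 of the 16 alternatives that gave an interval and on the higher side in all 18.

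**Figure D2:**
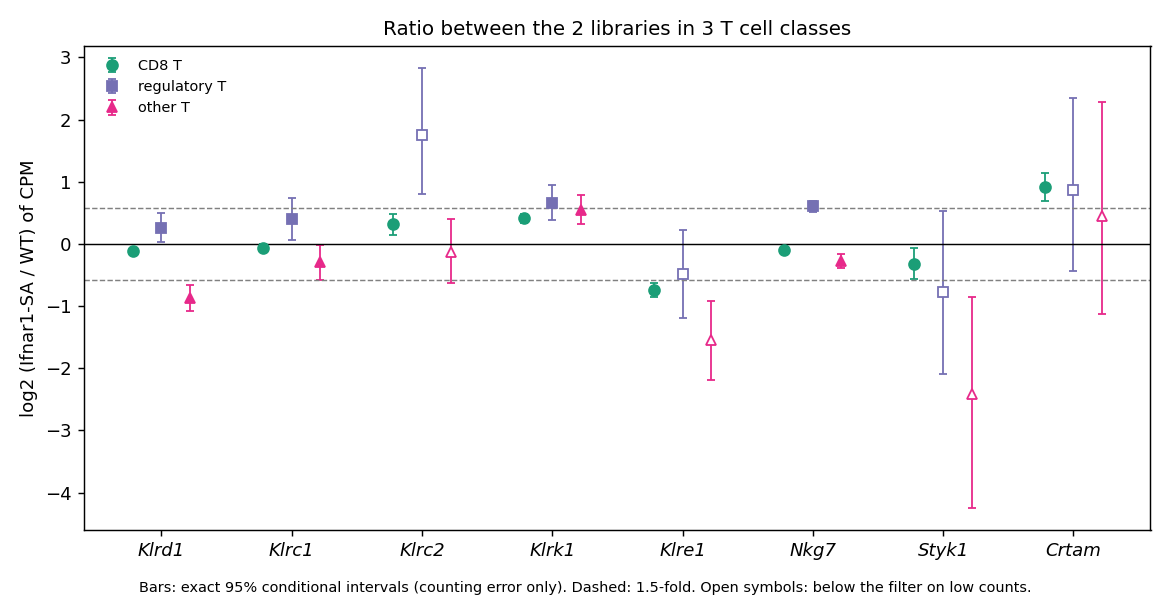
Log2 ratio of Ifnar1-SA over WT for the 8 genes in CD8 T (circles), regulatory T (squares) and other T cells (triangles), with 95% intervals that cover counting error only; dashed lines mark 1.5-fold and open symbols the genes below the filter on low counts. Crtam and Klre1 in CD8 T cells and Klrd1 in other T cells are the filled symbols whose intervals lie wholly beyond 1.5-fold.

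To compare shares of cells with at least 1 UMI, every cell was reduced at random to 2000 UMIs (thinned), which left 1068 WT and 817 Ifnar1-SA CD8 T cells and left out 87 and 66 shallower ones. Klre1 was detected in 29.0% (26.3% to 31.9%) of WT and 19.3% (16.7% to 22.2%) of Ifnar1-SA CD8 T cells, and unthinned in 50.04% and 40.1%. Klrk1 was detected in 45.6% (42.6% to 48.6%) and 55.6% (52.1% to 59.0%), unthinned in 75.0% and 83.0%. Crtam was detected in 5.06% (3.82% to 6.55%) and 9.43% (7.51% to 11.6%), unthinned in 11.5% and 20.2%. The share with Klrd1 was 74.0% and 71.1%, with Klrc1 52.3% and 52.8%, with Klrc2 13.7% and 16.6%, and with Styk1 9.83% and 7.59%, with overlapping intervals between the libraries for each of these 4 genes. For Nkg7 the shares were 92.5% (90.8% to 94.0%) and 87.8% (85.3% to 89.9%). How often such intervals were apart over all genes was not computed, so the number of these genes with separate intervals has nothing to be set against. In macrophage barcodes thinned to the same depth, whose unthinned medians were 10501 and 8450.5 UMIs against 6663 and 6083 in CD8 T cells, the share with Klrd1 was 1.13% and 1.23%, with Klre1 0.451% and 0.412%, with Nkg7 1.43% and 1.70%, and with Klrk1 10.8% (9.14% to 12.5%) and 14.1% (12.5% to 15.8%). Crtam was found in 0 of 1330 WT macrophage barcodes, which allows a share of barcodes with a UMI of up to 0.226% (3 counts of 1330), and in 2 of 1701 in Ifnar1-SA. The Crtam and Klre1 shares in CD8 T cells were thus above this background in both libraries. The Klrk1 share was 4.36% and 4.75% in regulatory T cells and 8.42% and 13.3% in other T cells, no higher than in macrophage barcodes. The source of the Klrk1 UMIs in these classes was not tested. In CPM, other T cells of Ifnar1-SA stood at 83.6 (76.8 to 90.9), above macrophage barcodes of that library at 69.3 (65.5 to 73.2).

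**Figure D3:**
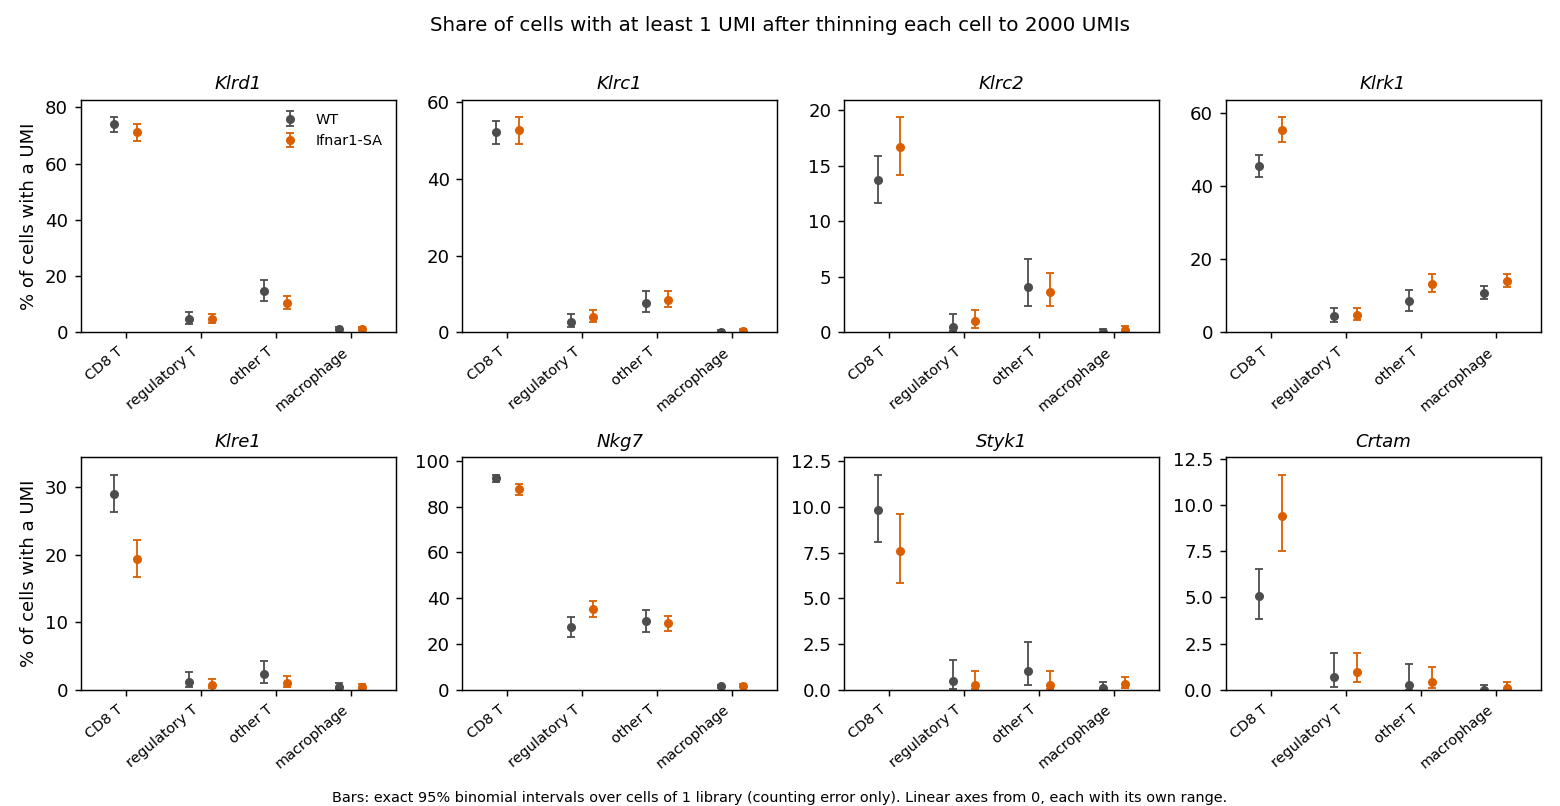
Percent of cells with at least 1 UMI of each gene after thinning every cell to 2000 UMIs, by class, WT in grey and Ifnar1-SA in orange, with 95% binomial intervals over the cells of 1 library. In CD8 T cells the intervals of the libraries are apart for Klrk1, Klre1, Nkg7 and Crtam and overlap for the other 4 genes. How often they are apart over all genes was not computed.

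Within the CD8 T class, cells were split by genes outside the set into cycling cells (37.1% of WT and 27.4% of Ifnar1-SA CD8 T cells), Xcl1-positive cells (10.2% and 20.4%), Gzmb-high cells (15.9% and 16.1%) and Gzmb-low cells (36.8% and 36.1%). Crtam was concentrated in the Xcl1-positive state, whose marker gene encodes a chemokine that attracts cross-presenting dendritic cells. Its level there was 116 (94.7 to 140) CPM in WT and 179.9 (158 to 204) in Ifnar1-SA. In cycling cells it was 21.9 and 29.96 CPM, in Gzmb-high cells 10.7 and 14.8 (below the filter), and in Gzmb-low cells 18.5 and 24.8. The log2 ratio of Crtam was 0.45 in cycling cells, 0.64 (0.30 to 0.98) in Xcl1-positive cells, 0.47 in Gzmb-high cells and 0.42 in Gzmb-low cells. Each was below the 0.92 of the whole class, and with the 4 states weighted equally the log2 ratio was 0.58.

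Klre1 was lower in Ifnar1-SA in each of the 4 states. It went from 196 (185 to 207) to 102 (91.5 to 113) CPM in cycling cells and from 193 (165 to 224) to 98.5 (82.4 to 117) in Xcl1-positive cells, with log2 ratios of -0.95 (-1.12 to -0.78) and -0.97 (-1.31 to -0.64). It went from 228.5 to 173 CPM in Gzmb-high cells and from 183 to 129 in Gzmb-low cells, with log2 ratios of -0.40 (-0.67 to -0.13) and -0.50 (-0.74 to -0.26). Klre1 UMIs per Klrd1 UMI were 0.229 (0.215 to 0.244) and 0.132 (0.118 to 0.148) in cycling cells, and 0.196 (0.1655 to 0.230) and 0.0924 (0.0768 to 0.1105) in Xcl1-positive cells. The intervals of this ratio overlapped in Gzmb-high cells, at 0.197 (0.173 to 0.2245) and 0.1585 (0.135 to 0.185). They also overlapped in Gzmb-low cells, at 0.144 (0.130 to 0.160) and 0.134 (0.116 to 0.1535). Klrk1 was higher in each state, by 0.35 in cycling, 0.60 (0.41 to 0.79) in Xcl1-positive, 0.12 (-0.07 to 0.31) in Gzmb-high and 0.24 in Gzmb-low cells on the log2 scale. Its highest level was 540.5 CPM, in Xcl1-positive Ifnar1-SA cells, against 357 in the same state of WT. Klrc2, the other activating receptor gene, was at 56.4 and 65.01 CPM in cycling, 50.7 and 77.7 in Xcl1-positive, 59.2 and 76.03 in Gzmb-high and 75.4 and 91.4 in Gzmb-low cells. Its value was higher in Ifnar1-SA in each state, but the interval of the log2 ratio excluded 0 in Xcl1-positive cells alone (0.62, from 0.10 to 1.15).

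Klrc1, the inhibitory partner of CD94, differed in direction between states. It stood at 490.5 CPM in WT and 623 in Ifnar1-SA in Xcl1-positive cells, a log2 ratio of 0.34 (0.18 to 0.51). It was lower in Ifnar1-SA in Gzmb-high cells, at 506 and 365, -0.47 (-0.66 to -0.28), and in Gzmb-low cells, at 457 and 363, -0.33. Klrc1 was also lower in cycling cells, at 366 and 326.5, -0.165 (-0.27 to -0.063). Styk1 had its high levels in the cells that were neither cycling nor Xcl1-positive: 70.7 and 62.1 CPM in Gzmb-high cells and 72.3 (61.5 to 84.4) and 31.4 (23.8 to 40.7) in Gzmb-low cells. The Gzmb-low difference of Styk1, a log2 ratio of -1.20 (-1.67 to -0.76), was the widest of any gene in any state and came from 160 and 57 UMIs. In cycling and Xcl1-positive cells Styk1 was at 15.5 to 22.9 CPM in both libraries with overlapping intervals. Klrd1 differed most in Gzmb-low cells, at 1268 CPM in WT and 966.5 in Ifnar1-SA, -0.39 (-0.48 to -0.30). Macrophage-marker barcodes made up 11.8% and 22.3% of Gzmb-low, 5.98% and 21.1% of Gzmb-high, 16.8% and 32.6% of cycling and 9.32% and 10.6% of Xcl1-positive cells in WT and Ifnar1-SA; their part in the differences by state was not tested.

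**Figure D4:**
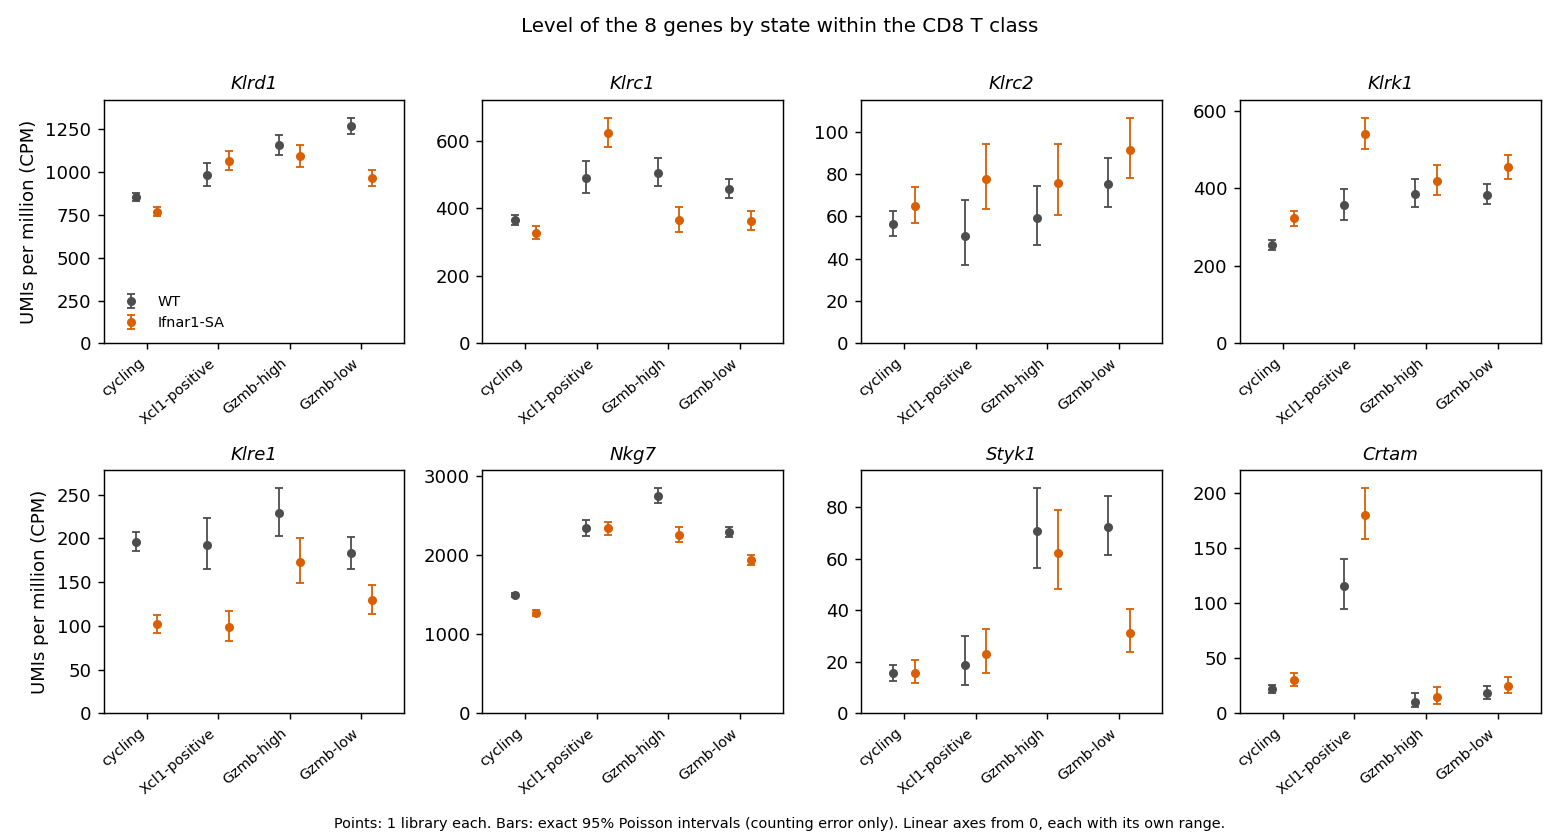
Level of the 8 genes in CPM (linear axes from 0) in 4 states of the CD8 T class, WT in grey and Ifnar1-SA in orange, with 95% Poisson intervals. Crtam is highest in Xcl1-positive cells, Styk1 in Gzmb-high and Gzmb-low cells, and Klre1 is lower in Ifnar1-SA in all 4 states.

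The partner genes of CD94 were often detected in the same cells as Klrd1. After thinning, Klrd1 was detected in 83.2% of WT and 82.6% of Ifnar1-SA CD8 T cells with Klrc1, and in 63.9% and 58.3% of those without it. For Klrc2 these shares were 82.2% and 83.8% with it, and 72.7% and 68.6% without. For Klre1 they were 85.8% and 91.1% with it, and 69.1% and 66.3% without. For Crtam they were 64.8% and 72.7% with it, and 74.5% and 70.9% without, with overlapping intervals. Over single CD8 T cells (1155 and 883 cells of 1 library each, which share depth, so that correlations are descriptions), the genes most like Klrd1 were Nkg7, Klrc1, Cd3g, Klrk1 and S100a4, with r from 0.33 to 0.45 in WT and from 0.40 to 0.47 in Ifnar1-SA. Those most like Klrk1 were Klrc1, Klrd1, Klre1, Ms4a4b and Klrc2, and those most like Klre1 were Klrd1, Klrk1, S100a4 and Pglyrp1. For Klrc1 they were Klrd1, Klrk1, Nkg7, Cd3g and Pdcd1, and for Klrc2 they were Klrk1 and Klrc1. Nkg7 was most like Cd8a, Cd3g, Klrd1, Ms4a4b and Cd8b1, and Styk1 was most like Ugcg and Vps37b. Crtam stood apart from the receptor genes: its closest genes were Ccl1 (r of 0.43 and 0.44), Xcl1 (0.42 and 0.46), Cd160, Rel and Gadd45b, and its r with the other 7 genes lay between -0.069 and 0.11.

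The Ifnar1-SA CD8 T cells split by sex-linked transcripts into 582 with Xist only, 143 with Y-linked transcripts only, 58 with both and 100 with neither. Klre1 was at 111 (102 to 120) CPM in the Xist-only part and 200.2 (172 to 232) in the Y-linked part, against 197 in WT. Its log2 ratio to WT was -0.83 (-0.96 to -0.69) in cells with Xist only of both libraries, and 0.025 (-0.20 to 0.25) for the Y-linked part against all WT cells. The lower level of Klre1 was thus seen in the Xist-only part and not in the Y-linked part. Klrd1 and Nkg7 also differed between the parts, at 876.5 and 1422 CPM for Klrd1 and 1697 and 2563 for Nkg7, on either side of the WT levels. Without macrophage-marker barcodes both parts were above WT, with log2 ratios of 0.087 and 0.39 for Klrd1 and 0.079 and 0.29 for Nkg7. Crtam was above WT in both, at 58.8 (52.5 to 65.6) and 48.6 (35.2 to 65.5) CPM, and so was Klrk1, at 409.8 and 509. The parts also differed in macrophage markers, at 10678 CPM in the Xist-only and 2406 in the Y-linked part, and in median depth, at 6508.5 and 4337 UMIs. Without macrophage-marker barcodes, the log2 ratio of Klre1 was -0.60 (-0.75 to -0.46) for Xist-only cells and -0.14 (-0.37 to 0.09) for the Y-linked part. For Crtam these values were 1.38 and 0.51 (-0.03 to 1.01), the latter from few cells. Whether the parts are separate mice is not given in the labels, and sex, mouse and cell composition cannot be told apart within this library.

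**Figure D5:**
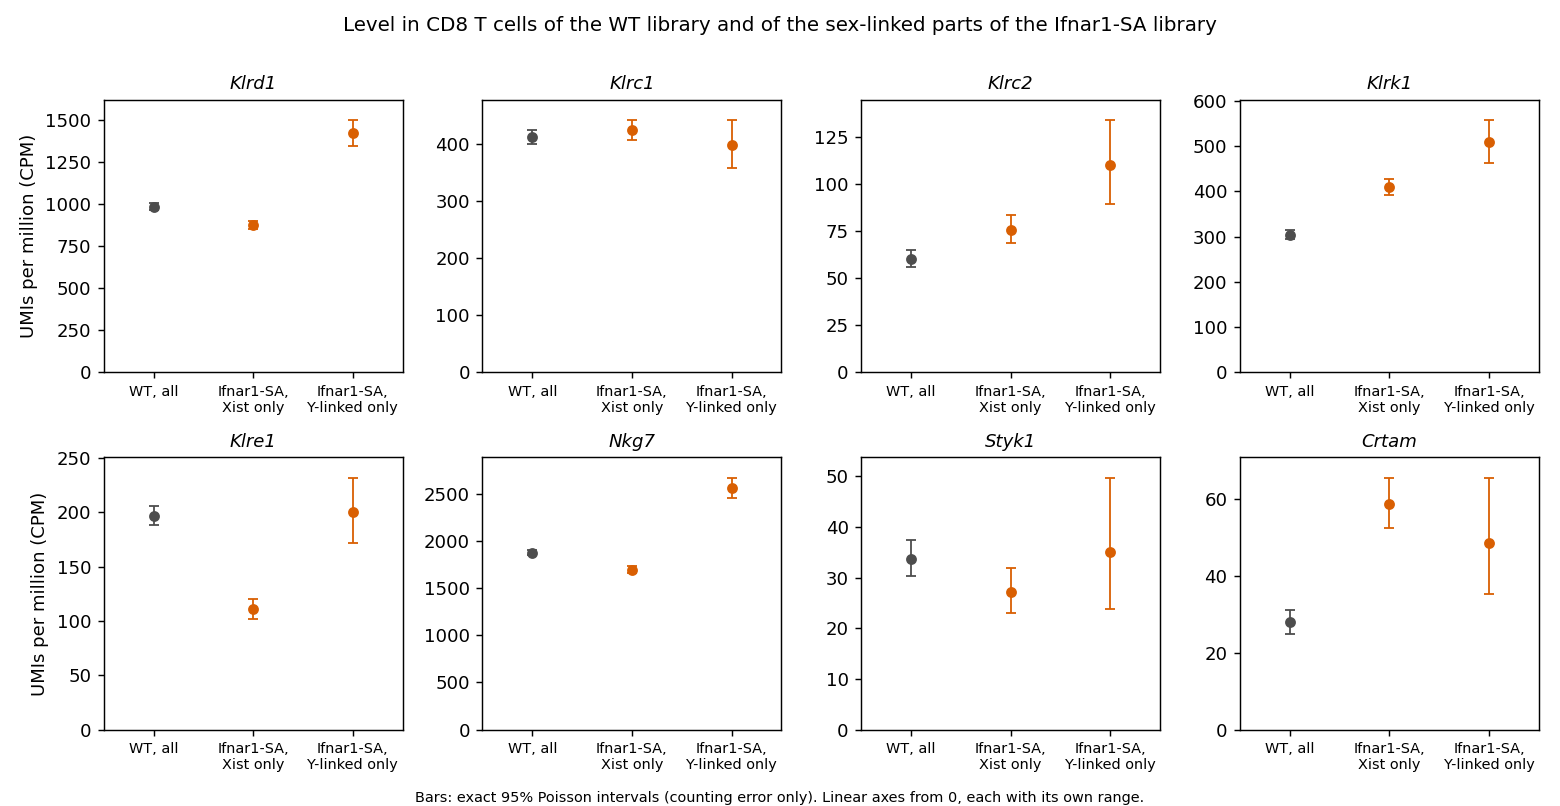
Level of the 8 genes in CD8 T cells in CPM (linear axes from 0) for all WT cells (grey) and for the Ifnar1-SA cells with Xist only or Y-linked transcripts only (orange), with 95% Poisson intervals. Klre1 is below WT in the Xist-only part and near it in the Y-linked part, while Klrk1 and Crtam are above WT in both parts.

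Of the 8 genes, 4 in regulatory T cells had enough counts to be compared, and all 4 had a higher level in Ifnar1-SA; none was past the fold, beside 1.88% of the 5643 genes compared in the higher and 0.478% in the lower direction. Nkg7 stood at 277 (262 to 292) CPM in WT and 422 (407 to 436) in Ifnar1-SA, for a log2 ratio of 0.61 (0.52 to 0.70). Klrk1 went from 31.6 to 50.02 CPM (0.66, from 0.39 to 0.94), Klrc1 from 23.1 to 30.4 (0.40, from 0.07 to 0.73) and Klrd1 from 46.1 to 55.3 (0.26, from 0.03 to 0.50). The median of the 4 was 0.50, beside -0.016 over all genes compared. Macrophage-marker barcodes made up 21.4% of WT and 36.1% of Ifnar1-SA regulatory T cells. Without them Nkg7 was past the fold at 0.92 (0.82 to 1.03), and the log2 ratio was 0.85 for Klrd1 and 0.99 for Klrc1. The Nkg7 difference was spread over cells, with 217 of 457 WT and 404 of 751 Ifnar1-SA cells positive, and the thinned share was 27.3% (23.2% to 31.7%) and 35.1% (31.6% to 38.7%). The Klrd1 values rested on few cells: the 5 with most UMIs held 38.6% and 45.3% of them, and with Xist-only cells its log2 ratio was -0.20 (-0.46 to 0.063). Some barcodes, 31 in WT and 45 in Ifnar1-SA, passed both the CD8 T and the regulatory T gate. Without them the log2 ratio of Nkg7 was 0.86 (0.75 to 0.97), that of Klrc1 was -0.015, and Klrd1 and Klrc1 no longer passed the filter. The 4 genes below the filter were Klrc2, with 11 WT and 58 Ifnar1-SA UMIs (log2 ratio 1.75, from 0.81 to 2.83), Klre1 with 34 and 38, Styk1 with 12 and 11, and Crtam with 7 and 20.

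In other T cells the same 4 genes could be compared, and 1 was past the fold in the lower direction, as were 1.5% of the 5750 genes compared; 2.12% of them were past it in the higher direction. That gene was Klrd1, at 108 (97.5 to 120) CPM in WT and 58.9 (53.2 to 65.1) in Ifnar1-SA, with a log2 ratio of -0.88 (-1.09 to -0.67). Klrc1 (50.3 to 41.1 CPM, -0.29, from -0.57 to -0.0095) and Nkg7 (307 to 254.5, -0.27, from -0.38 to -0.16) were lower, and Klrk1 was higher (57.0 to 83.6, 0.55, from 0.315 to 0.80). The median of the 4 was -0.28, beside -0.026 over all genes compared. Below the filter, Klre1 had 55 WT and 36 Ifnar1-SA UMIs (-1.54, from -2.19 to -0.91), Styk1 14 and 5, Klrc2 52 and 91, and Crtam 5 and 13.

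NK markers differed between the libraries within other T cells. Ncr1 gave 18 UMIs in the WT and 0 in the Ifnar1-SA class, and Klrb1c 16 and 2. In WT, 6 of 473 barcodes had a UMI of either gene and held 34 of the 55 Klre1 UMIs and 45 of the 372 Klrd1 UMIs. Without such barcodes the log2 ratio of Klre1 was -0.19 (-1.004 to 0.66) and that of Klrd1 -0.73 (-0.94 to -0.51), which is no longer wholly past the fold. Split by Cd4, Klrd1 went from 127 (111 to 145) to 52.6 (45.0 to 61.1) CPM in the cells with a Cd4 UMI, -1.27 (-1.57 to -0.98), and from 89.0 to 65.0 in those without, -0.45 (-0.76 to -0.14). T cell markers summed to 3633 and 2401 CPM in the cells with Cd4, and to 1618 and 1784 in those without. Macrophage-marker barcodes made up 20.3% and 41.6% of the former and 30.2% and 46.2% of the latter. Whether Klrd1 differed more in the cells with Cd4 apart from these shifts was not tested. Klre1 in cells without Cd4 went from 29.3 to 8.43 CPM. Macrophage-marker barcodes made up 25.0% of WT and 44.1% of Ifnar1-SA other T cells, and without them the log2 ratio of Klrd1 was -0.54 (-0.78 to -0.29). Klrc1 and Nkg7 then had higher values in Ifnar1-SA, at 0.36 (0.028 to 0.695) and 0.39 (0.26 to 0.52), so their direction in this class turned with these barcodes. By sex-linked transcripts, the log2 ratio of Klrd1 was -1.07 in Xist-only cells and 0.51 (-0.016 to 1.002) for the Y-linked part, which held 44 such cells.

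Klrk1 was higher in Ifnar1-SA in all 3 T cell classes, and its level in macrophage barcodes was higher as well. Without macrophage-marker barcodes its log2 ratio was 0.63 (0.55 to 0.70) in CD8 T cells, 0.87 (0.42 to 1.34) in regulatory T cells and 0.50 (0.15 to 0.85) in other T cells. With Xist-only cells and no macrophage-marker barcodes it was 0.64, 0.65 and 0.10 (-0.29 to 0.50), so the other T value was then not detectable at this depth. Beside the shares in macrophage barcodes given above, the values outside CD8 T cells are differences in summed counts, and the part of macrophage RNA in them was not tested.

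Other genes of the same pathways were taken from lists. A list of 24 other annotated Klr and Clec genes held receptors and some of their lectin ligands. Of these, 3 had enough counts in CD8 T cells (Klra2, Clec2d and Clec2i), and 1 was past the fold in the higher direction, beside 3.6% of all genes compared. This was Klra2, higher at 30.1 and 68.5 CPM (1.19), and also higher in other T cells (70.1 to 128.5 CPM, 0.87). In regulatory T cells it stood at 49.96 and 81.3 CPM. In both libraries its level rose over the 3 classes in the order of their macrophage marker sums, and the part of macrophage RNA was not tested. Klra4 was past the fold in other T cells in the lower direction, as were 1.5% of all genes compared, with 85 WT and 20 Ifnar1-SA UMIs. Klra genes are close copies of each other, so their counts are uncertain. Of the adaptors and proximal signalling genes, 19 of 24 could be compared in CD8 T cells, and 2 were past the fold, both higher, beside 3.6% of all genes compared: Tyrobp, the DAP12 adaptor of activating receptors (433 to 796 CPM, 0.88), and Fcer1g (648 to 1335, 1.04). Both are also macrophage genes, at 2594.5 and 2763 CPM for Tyrobp and 3944 and 4553 for Fcer1g in macrophage barcodes, and the part of macrophage RNA in their difference was not tested. Sh2d1b1, which encodes the adaptor EAT-2, was past the fold in other T cells (1.26). Its level was 14.8 and 35.4 CPM there and 5.04 and 19.8 in CD8 T cells, and the part of macrophage RNA was not tested.

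None of the 5 receptor ligand genes compared in CD8 T cells was past the fold. In other T cells Cadm1, the ligand of CRTAM, was higher with 27 and 132 UMIs (1.36). Cadm1 stood at 7.85 and 20.1 CPM there and 2.61 and 11.7 in CD8 T cells, and the part of macrophage RNA was not tested. Of 14 other NK and nectin-family receptors compared in CD8 T cells, Slamf7 was past the fold higher (54.0 to 101 CPM, 0.90) and Cd244a lower (33.9 to 15.9, -1.09). In these directions 3.6% and 1.11% of all genes compared were past the fold. Slamf7 and Cd244a both belong to the SLAM family of receptors. Of 19 cytotoxic granule genes compared in CD8 T cells, 5 were past the fold in the higher direction and 1 in the lower, beside 3.6% and 1.11% of all genes compared. The granzyme genes Gzme (1.31), Gzmd (1.19) and Gzmf (0.72), the protease gene Ctsc (0.995) and the inhibitor gene Serpinb6b (0.71) were higher, and Gzmk was lower (44.7 to 19.3 CPM, -1.21). Gzmd, Gzme and Gzmf are close copies, and Ctsc is also expressed by macrophages. Gzma was lower in regulatory T (-1.75) and other T cells (-2.52); of its 108 WT UMIs in other T cells, 105 were in the cells without Cd4, which also held the 18 Ncr1 UMIs. Gzmc was higher in regulatory T (1.31) and lower in other T cells (-1.50). Of 14 transcription factors of the cytotoxic programme compared in CD8 T cells, Zeb2 was past the fold (123 to 223 CPM, 0.86). In that direction 3.6% of all genes compared were past it. Zeb2 was past the fold in regulatory T and other T cells as well, and it too is a gene that macrophages express.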

How the data were processed

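Immune cells of MC38 tumours were measured in 1 WT and 1 Ifnar1-SA library. The deposited files hold raw UMI counts from Cell Ranger 4, per the file headers, on mm10, which the submitters' processing notes name. Neither the annotation release nor the aligner's settings could be read from the sources used here. Samples were placed in groups by the genotype label.

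Kept barcodes had a minimum of 1000 UMIs and 500 genes and a mitochondrial maximum of 10%. The gene minimum removed 167 WT and 314 Ifnar1-SA barcodes and the mitochondrial maximum 375 and 565. No doublet caller was run; barcodes with 10 or more UMIs of C1qa, C1qb, C1qc, Lyz2, Csf1r and Apoe were left out as an alternative. NK-gated barcodes had at most 1 UMI of Cd3e, Cd3g and Trac and at least 2 of Ncr1 and Klrb1c. Macrophage barcodes had none of the former and at least 10 UMIs of C1qa, C1qb, C1qc, Lyz2 and Csf1r. States within CD8 T cells were split in order: 2 or more UMIs of 6 cycling genes, 2 or more of Xcl1, 5 or more of Gzmb, and the rest.

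UMIs were summed per class and library and scaled to CPM. Poisson, conditional binomial (for the log2 ratio) and Clopper-Pearson intervals at 95% were computed with Python 3.11.15, numpy 2.4.6, scipy 1.17.1 and pandas 2.3.3, and the ratio and its interval were tested on simulated data. No test between genotypes was made, since each is 1 library. The 8 genes and the gene lists were chosen with earlier results of these data known. Named were all 8 genes, list members past the fold (at most 6 a list) and, per gene, up to 5 genes with a Pearson correlation of at least 0.2 in both libraries among 5911 genes detected in at least 10% of CD8 T cells. Gene positions came from GENCODE, promoter windows from RefSeq.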

Additional observations from a re-analysis of the deposited data

Results flagged for a closer look

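The log2 ratio of Klrd1, Klrc1 and Nkg7 lay on opposite sides of 0 in regulatory T cells and in the other T cell classes, with intervals that excluded 0 on both sides. For Klrd1 the ratio in regulatory T cells was 0.38 above that in CD8 T cells, and that in other T cells was below it by a log2 difference of -1.14. For Klrc1 these differences were 0.47 and -0.69, and for Nkg7 they were 0.71 and -0.88. The differences themselves were not tested, since each genotype is 1 library. Macrophage-marker barcodes made up 22.5% of Ifnar1-SA CD8 T, 36.1% of regulatory T and 44.1% of other T cells. Without them Klrd1, Klrc1 and Nkg7 were higher in CD8 T cells (0.17, 0.18 and 0.16), as in regulatory T cells, and so were Klrc1 and Nkg7 in other T cells (0.36 and 0.39). The opposition was then left for Klrd1 between other T and regulatory T cells (-0.54 and 0.85). The regulatory T side also depended on barcodes that passed both the CD8 T and the regulatory T gate. Without those, its log2 ratio was 0.13 (-0.47 to 0.75) for Klrd1 and -0.015 (-0.54 to 0.52) for Klrc1, so neither interval excluded 0. For Nkg7 it was 0.86 (0.75 to 0.97).

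For some genes the sex-linked parts of the Ifnar1-SA library also lay on opposite sides of WT. Not all genes did so, as Klrk1, Klrc2 and Crtam were above WT in both parts in CD8 T cells. In CD8 T cells the log2 ratio of the part with Y-linked transcripts exceeded that of the Xist-only part by 0.70 for Klrd1 and by 0.59 for Nkg7. In other T cells it exceeded it by 1.49 for Klrc1 and by 1.35 for Nkg7, from 44 cells with Y-linked transcripts. Without macrophage-marker barcodes the parts lay on the same side of WT for Klrd1 and Nkg7 in CD8 T cells (0.087 and 0.39, 0.079 and 0.29) and for Nkg7 in other T cells (0.16 and 1.04). For Klrc1 in other T cells they were -0.15 (-0.52 to 0.22) and 0.94. These differences were not tested across samples. Compared directly within the Ifnar1-SA CD8 T cells, the log2 ratio of the Y-linked over the Xist-only part was 0.86 (0.61 to 1.10) for Klre1, -0.091 (-0.26 to 0.071) for Klrc1 and -0.27 (-0.77 to 0.19) for Crtam.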

How the results depend on the processing

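No paired analysis was possible because each genotype is 1 library, and no replicate could be left out. In all, 18 alternatives were run, 3 of them chosen after seeing the data (both sex-linked parts without macrophage-marker barcodes, and all barcodes without Ncr1 or Klrb1c UMIs); equal weights for cells or states give no interval and so no count. The cause of a change was not tested unless given. The share of all genes past the fold was computed for the reported setting alone, so the counts under the alternatives cannot be set against it. In CD8 T cells 2 genes were past the fold. The count was 1 without macrophage-marker barcodes, without barcodes in both gates, with gates of 4 T, 4 CD8 and 2 Foxp3 UMIs, with scaling by T cell receptor complex UMIs, for the Y-linked part, and for Xist-only cells without macrophage-marker barcodes; in the Y-linked part that gene was Klrk1 (0.74), and both Crtam and Klre1 were lost. It was 0 with thinning to 2000 UMIs, which leaves fewer counts, and for the Y-linked part without macrophage-marker barcodes. The median of -0.085 changed sign to 0.17 without macrophage-marker barcodes, 0.015 with stricter gates, 0.043 with equal cell weights, 0.049 with thinning, 0.071 with receptor complex scaling and 0.49 for the Y-linked part. Without macrophage-marker barcodes it was 0.17 for Xist-only cells and 0.34 for the Y-linked part. Klre1 changed sign in the Y-linked part only (0.025), was lower in the other 17 alternatives, and was past the fold in 8 of 16 with an interval.

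In regulatory T cells the count of 0 became 1 without macrophage-marker barcodes, without barcodes in both gates, with thinning, without the 5 top cells of each gene, with a filter of 10 UMIs and no CPM minimum, and for either sex-linked part without macrophage-marker barcodes. It became 2 with stricter gates and for the Y-linked part. The median of 0.50 moved to 0.90 without macrophage-marker barcodes, 0.83 without barcodes in both gates, 0.75 without the top cells and 1.21 for the Y-linked part. Without macrophage-marker barcodes it was 0.74 for Xist-only cells and 1.28 for the Y-linked part. In other T cells the count of 1 became 0 without macrophage-marker barcodes, with thinning, without the top cells and without Ncr1 or Klrb1c barcodes. It stayed 1 with another gene with receptor complex scaling (Klrk1 at 0.89, Klrd1 at -0.54) and for Xist-only cells without macrophage-marker barcodes (Klre1 at -1.77, Klrd1 at -0.78). It became 2 for the Y-linked part, with or without macrophage-marker barcodes, and 3 with the looser filter, which admits more genes. Medians and counts are over the genes that pass the filter in each setting; in other T cells these were 4 as reported and with scaling, 6 without macrophage-marker barcodes, and 5 with thinning and for the Y-linked part. The median of -0.28 turned to 0.10, 0.056, 0.051 and 0.87 without macrophage-marker barcodes, with thinning, with receptor complex scaling and for the Y-linked part, and to 0.67 for that part without macrophage-marker barcodes. It moved to -0.047 with equal cell weights and -0.52 for Xist-only cells. Klrd1 in other T cells turned to 0.51 in the Y-linked part and 0.40 in that part without macrophage-marker barcodes. Depth limits Crtam, Styk1, Klre1 and Klrc2 outside CD8 T cells.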

Other observations

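T cells with 1 Cd8a or Cd8b1 UMI and no Foxp3 fell outside the 3 classes (92 in WT and 81 in Ifnar1-SA). Their Klrd1 level was 254 (219 to 294) CPM in WT and 199 (166 to 238) in Ifnar1-SA, between those of CD8 T and other T cells. Klrk1 was at 133 and 206 CPM there, and Klre1 at 35.9 (23.5 to 52.7) and 68.1 (49.1 to 92.0), higher in Ifnar1-SA, opposite in direction to CD8 T cells and from 26 and 42 UMIs. Barcodes with at least 2 Trdc UMIs, a constant gene of the gamma-delta receptor, numbered 2 and 10; Klrd1 had 4 and 41 UMIs in them, Klrc1 10 and 19, and Crtam 0 and 3.

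Among CD8 T cells with a Styk1 UMI after thinning, Klrd1 was detected in 79.0% of WT (70.0% to 86.4%) and 95.2% of Ifnar1-SA cells (86.5% to 99.0%), from 105 and 62 cells.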
